A study of Mus musculus with 9 samples.

Results

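The genes described here build the peroxisome or carry out its fatty acid oxidation. They were chosen by gene symbol, as 27 named genes of 19094 genes with a row in at least 1 sample, and all 27 were found. Of these, 13 are peroxins, the proteins that assemble and multiply peroxisomes, and 14 are peroxisomal enzymes and transporters. Peroxisomes are small organelles bounded by a single membrane. They shorten very long-chain, branched and dicarboxylic fatty acids and bile acid intermediates, and their acyl-CoA oxidases pass electrons to oxygen, which yields hydrogen peroxide. Matrix proteins are made in the cytosol, carried in by the receptors PEX5 and PEX7 and released inside, after which the receptor is marked with ubiquitin and returned. In fat cells peroxisomes also make the first intermediates of plasmalogens, the ether lipids of membranes.

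RNA was sequenced from 3T3-L1, a mouse fibroblast-like cell line that turns into lipid-storing adipocytes under a hormone cocktail, with 3 samples at each of 3 stages. Day 0 cells were confluent preadipocytes in medium with fetal bovine serum. Day 4 cells had received induction medium with dexamethasone, IBMX and insulin for 2 days and maintenance medium with insulin for 2 more days, and day 8 cells had spent another 4 days in maintenance medium. No genotype, transgene or second line was involved, and cells of a stage were pooled for extraction according to the study's methods, so the p-values measure the spread between samples that may be technical replicates. The deposited expected counts, the reads that RSEM assigned to each gene, summed to between 18216114 and 20452144 per sample. At this depth 3 counts correspond to between 0.147 and 0.165 CPM, counts scaled to library size.

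Every sample is labelled with the cell type adipocytes, day 0 included, whereas 6 of the 7 adipocyte markers were at most at 11.26 FPKM, the length- and depth-scaled unit of the deposited files, at day 0. The other one, the lipoprotein lipase gene Lpl, was at 121.32, 113.52 and 116.37 FPKM there and made up most of the day 0 sum. The summed level of the 7 was 132.0, 126.6 and 126.2 FPKM at day 0, 5763, 6836 and 8256 at day 4 and 8528, 9311 and 9237 at day 8. Fabp4, the fatty acid binding protein of fat cells, was the most abundant marker at days 4 and 8, and Lep, the gene of leptin, was listed at 0 in all day 0 samples. The 5 preadipocyte or fibroblast markers summed to between 3610 and 5312 FPKM over all samples, led by Vim at days 0 and 4 and by Col1a1 at day 8. An extraction text in the labels names dorsal root ganglion, but Scn10a, a sodium channel gene of its sensory neurons, had at most 1 count in any sample. The summed level reached 2.19 FPKM for 5 macrophage or leukocyte markers, led by Cd68 with Adgre1 at no more than 2 counts, and 0.50 FPKM for 4 endothelial markers, none of them above 0.30 FPKM in any sample. It reached 1.38 FPKM for the 3 hepatocyte markers with a row, led by Cyp2e1 with Alb at no more than 3 counts. It reached 0.26 FPKM for 2 brown adipocyte markers, with Ucp1, the uncoupling protein of brown fat, at no more than 2 counts.

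Most of the peroxisomal genes rose in the early phase, the comparison of day 4 with day 0, and 2 of them, Abcd2 and Acaa1b, rose by more than 2-fold in the late phase, the comparison of day 8 with day 4. Of the 13154 genes tested by edgeR's quasi-likelihood test, 26 were members. Ehhadh did not pass the filter on low counts, and Acaa1b passed it through its counts at days 4 and 8. At an adjusted p under 0.05 (Benjamini-Hochberg over all genes tested) and a fold change above 2, 11 of 26 members were higher in the early phase, where 9.77% of all genes tested were called higher. None was lower by that rule, where 7.98% of all genes were. In the late phase 2 of 26 members were called higher, beside 4.24% of all genes, and 0 lower, beside 2.81%. Over the whole process, day 8 against day 0, 12 of 26 were higher, beside 10.3% of all genes, and 0 were lower, beside 7.70%. At an unadjusted p under 0.05 in edgeR, 1 member was lower in the early phase, 1 in the late phase and 0 over the whole process, and DESeq2 called 0 lower by more than 2-fold in each. The 3 comparisons share samples, so their values are given side by side and are not independent of each other. In RNA from whole cultures, a change in the number of cells that express a gene and a change of its RNA per cell cannot be told apart.

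With the adjusted p alone and no fold threshold, 24 members were higher and 1 lower in the early phase, beside 35.5% and 33.7% of all genes. The late phase gave 10 higher and 1 lower, beside 22.5% and 22.7%. The whole process gave 25 higher and 0 lower, beside 34.8% and 36.2%, and the exception was Pecr. In TMM-scaled CPM, the samples of day 0 and day 4 did not overlap for 24 members that were higher and 1 that was lower at day 4, beside 37.0% and 35.4% of all genes. Between day 4 and day 8 there were 11 such members higher and 1 lower, beside 27.2% and 27.3%. Between day 0 and day 8 all 26 were higher without overlap on this scale, beside 37.0% higher and 38.6% lower of all genes. In FPKM, Pecr (6.43 to 6.84 at day 0, 6.43 to 6.79 at day 8) and Pex26 (3.24 to 3.85, 3.69 to 4.12) overlapped between these days. Phyh touched there at 12.48 FPKM. The median log2 fold change of the 26 members was 0.75 in the early phase, 0.07 in the late phase and 0.79 over the whole process. The medians over all genes tested were 0.02, -0.01 and -0.02.

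**Figure D1:**
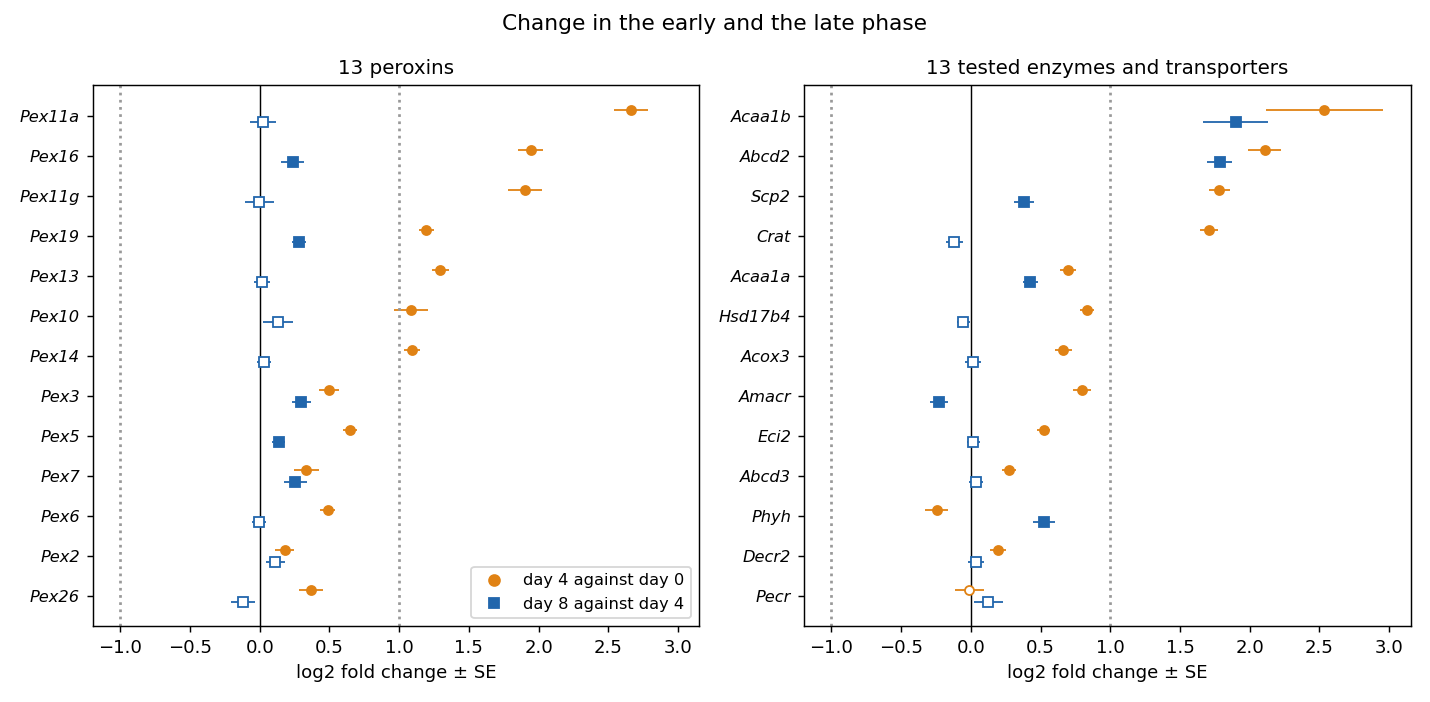
Log2 fold change with its standard error (horizontal axis) of each tested gene in the early phase (orange circles, day 4 against day 0) and the late phase (blue squares, day 8 against day 4), with peroxins on the left and enzymes and transporters on the right. Filled symbols passed an adjusted p under 0.05, open symbols did not, and dotted lines mark a 2-fold change. All 13 peroxins lie right of 0 in the early phase, and in the late phase they lie between -0.12 and 0.30.

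Of the peroxins, all 13 were higher at day 4 than at day 0 by the adjusted p, and 7 of them by more than 2-fold: Pex13, Pex14, Pex10, Pex16, Pex19, Pex11a and Pex11g. Of all genes tested, 35.5% and 9.77% were higher by these rules. The summed level of the peroxins was 142.4, 142.6 and 145.8 FPKM at day 0, 270.5, 295.0 and 307.7 FPKM at day 4 and 302.7, 308.6 and 313.5 FPKM at day 8. The day 4 samples were all above the day 0 samples, and the third of them lay within the range of day 8. The order of the 3 day 4 samples was the same as that of the adipocyte marker sum given above, and the part of differentiation extent in the peroxin values was not tested. In the late phase 0 peroxins passed 2-fold in edgeR or DESeq2, beside 4.24% of all genes called higher in edgeR. By the adjusted p in edgeR 5 (Pex3, Pex5, Pex7, Pex16 and Pex19) were higher, beside 22.5% of all genes. The count at an unadjusted p under 0.05 was likewise 5. Pex5 and Pex16 lost the late call without day 4 replicate 1 and under library size alone, and Pex5 and Pex7 without day 8 replicate 2. The median log2 fold change of the peroxins was 1.08 in the early phase, 0.11 in the late phase and 1.12 over the whole process.

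Pex11a, which like Pex11g acts in elongation and division of peroxisomes, had the largest fold change of the 13 peroxins in the early phase and from day 0 to day 8. Pex11a (NCBI gene 18631) was at 3.89, 4.23 and 4.51 FPKM at day 0, at 21.41, 27.06 and 27.93 FPKM at day 4 and at 23.58, 26.12 and 25.46 FPKM at day 8. The day 0 samples were far below the others, while the day 4 and day 8 samples overlapped. The log2 fold change of Pex11a was 2.66 ± 0.12 (SE, n = 3 per day) in the early phase, a 6.33-fold rise (edgeR adjusted p = 1.1e-11). The late value was 0.02 ± 0.09 (edgeR adjusted p = 0.87). Pex11g (69129) had the lowest mean of all peroxins at day 0, at 2.92, 2.68 and 3.27 FPKM, followed by 9.53, 11.28 and 11 at day 4 and 9.68, 10.95 and 10.16 at day 8. It rose by 1.90 ± 0.12 on the log2 scale in the early phase (edgeR adjusted p = 7.1e-10), with day 4 and day 8 overlapping. Of the 50-base stretches of the Pex11g transcript, 47.8% also lie in a transcript of the opposite strand, Gm44775, and whether the counting used strand was not given in the sources used here.

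Peroxins that place membrane proteins, PEX3, PEX16 and PEX19, have genes that rose in both phases. PEX19 is the cytosolic chaperone of peroxisomal membrane proteins, and PEX3 and PEX16 receive it at the membrane. Pex16 (18633) was at 11.04, 12.62 and 12.04 FPKM at day 0, at 37.91, 44.97 and 51.77 FPKM at day 4 and at 51.17, 49.56 and 52.27 FPKM at day 8. The day 4 samples spread widely, and the third reached the day 8 range. The early log2 fold change was 1.94 ± 0.09 (edgeR adjusted p = 1.9e-11), the late one 0.24 ± 0.08 (edgeR adjusted p = 0.025), and the late call was lost without day 4 replicate 1 (edgeR adjusted p = 0.12), without day 8 replicate 1 (0.054) and without day 8 replicate 3 (0.055). Pex19 (19298) rose in separate steps, from 18.7, 18.64 and 18.94 FPKM at day 0 to 38.48, 41.86 and 43.6 at day 4 and 47.13, 48.88 and 49.63 at day 8. No sample of one day overlapped with another day, and the late log2 fold change was 0.28 ± 0.05 (edgeR adjusted p = 0.00033). Pex3 (56535) changed less, from a mean of 8.67 ± 0.359 FPKM (SD, n = 3) at day 0 to 11.8 ± 0.718 at day 4 and 14.4 ± 0.927 at day 8. Pex3 rose by 0.50 ± 0.07 on the log2 scale early (edgeR adjusted p = 9.1e-06) and by 0.30 ± 0.07 late (edgeR adjusted p = 0.0016), the highest late value of any peroxin.

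PEX13 and PEX14 form the docking complex, where the loaded receptor meets the membrane. Pex13 (72129) was at 8.64, 8.58 and 8.29 FPKM at day 0, at 18.64, 19.33 and 21.89 FPKM at day 4 and at 19.14, 19.76 and 19.81 FPKM at day 8. Pex14 (56273) was at 24.71, 22.37 and 23.03 FPKM at day 0, at 46.58, 47.76 and 48.45 FPKM at day 4 and at 45.06, 47.16 and 49.16 FPKM at day 8. In both genes the day 0 samples lay apart and the later days overlapped. The early log2 fold changes were 1.30 ± 0.06 for Pex13 (edgeR adjusted p = 1.5e-11) and 1.09 ± 0.06 for Pex14 (edgeR adjusted p = 4.1e-11). The late values were 0.02 ± 0.06 (edgeR adjusted p = 0.82) and 0.03 ± 0.05 (edgeR adjusted p = 0.66).

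The import receptors had smaller early log2 fold changes than the docking genes, a difference that was not tested. Pex5 (19305), the receptor for the common carboxy-terminal targeting signal, was at 23.17, 24.62 and 23.75 FPKM at day 0, at 34.0, 36.79 and 36.28 FPKM at day 4 and at 37.73, 37.84 and 38.28 FPKM at day 8. The 3 days did not overlap. On the log2 scale Pex5 rose by 0.65 ± 0.05 early (edgeR adjusted p = 4.1e-09) and by 0.14 ± 0.05 late (edgeR adjusted p = 0.024), and the late call was lost without day 4 replicate 1 (0.094), without day 8 replicate 2 (0.061) and under library size alone (0.12). Pex7 (18634), the receptor for the amino-terminal signal carried by the straight-chain thiolases and phytanoyl-CoA hydroxylase, was at 5.34, 5.38 and 5.23 FPKM at day 0, at 6.4, 6.31 and 6.51 at day 4 and at 6.89, 7.86 and 7.5 at day 8. It also rose with no overlap between days, by 0.34 ± 0.09 (edgeR adjusted p = 0.0028) and then by 0.26 ± 0.08 (edgeR adjusted p = 0.02), the latter lost without day 8 replicate 2 (0.091).

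Genes that release the receptor after import gave the 3 smallest peroxin changes over the whole process, in Pex26, Pex2 and Pex6, with Pex10 as the exception. PEX2 and PEX10 are RING-finger subunits of the ubiquitin ligase of the membrane. Pex10 (668173) was at 2.75, 3.49 and 3.05 FPKM at day 0, at 5.93, 6.76 and 6.05 at day 4 and at 7.55, 6.08 and 6.29 at day 8, an early log2 fold change of 1.08 ± 0.12 (edgeR adjusted p = 8.1e-07). Day 0 lay below all later samples, which overlapped. Pex2 (19302) was at 10.08, 10 and 10.99 FPKM at day 0 and at 11.78, 10.68 and 11.04 FPKM at day 4, which overlap. Its early log2 fold change of 0.18 ± 0.07 (edgeR adjusted p = 0.03) did not pass without day 0 replicate 1 (0.089), without day 0 replicate 2 (0.091), without day 4 replicate 1 (0.11) or with upper-quartile factors (0.11).

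The recycling genes encode the ATPase PEX6, which pulls the receptor out, and PEX26, its anchor. Pex6 (224824) had means of 19.0 ± 0.863, 25.5 ± 1.13 and 24.7 ± 0.921 FPKM (SD, n = 3) at days 0, 4 and 8, and rose by 0.49 ± 0.05 on the log2 scale in the early phase (edgeR adjusted p = 5.5e-07). Pex26 (74043), among the least abundant peroxins, had means of 3.58 ± 0.311, 4.43 ± 0.303 and 3.94 ± 0.223 FPKM. It rose by 0.37 ± 0.09 early (edgeR adjusted p = 0.0013), and its value over the whole process, 0.25 ± 0.09 (edgeR adjusted p = 0.019), did not pass without day 0 replicate 2 (0.088), without day 8 replicate 1 (0.068) or under library size alone (0.17).

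Of the 14 enzymes and transporters 13 were tested. In the early phase 4 were higher by more than 2-fold (Abcd2, Acaa1b, Scp2 and Crat), beside 9.77% of all genes. By the adjusted p alone 11 were higher and 1, Phyh, was lower, beside 35.5% and 33.7%. In the late phase 2 of them, Abcd2 and Acaa1b, rose by more than 2-fold, beside 4.24% of all genes. By the adjusted p alone 5 were then higher and 1, Amacr, was lower, beside 22.5% and 22.7%. Without Acaa1b, which had 8 counts in all at day 0 and passed the filter only through the later days, the calls above 2-fold were 3 early and 1 late, and the log2 fold changes over the whole process ran from 0.12 for Pecr to 3.89 for Abcd2. Those of the peroxins ran from 0.25 to 2.68. The summed level was 234.8, 235.6 and 236.2 FPKM at day 0, 394.8, 423.0 and 448.6 FPKM at day 4 and 457.2, 469.2 and 466.5 FPKM at day 8, with no overlap between days. Here too the day 4 samples stood in the order of the adipocyte marker sum, and the part of that sum was not tested.

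The transporters ABCD2 and ABCD3 carry fatty acyl-CoAs across the peroxisomal membrane. Abcd2 (26874) was at 1.06, 0.88 and 1.2 FPKM at day 0, at 3.8, 4.47 and 4.73 FPKM at day 4 and at 13.19, 15.5 and 14.65 FPKM at day 8. The days were far apart, and the gene rose in both phases, by 2.11 ± 0.12 (edgeR adjusted p = 1.4e-10) and 1.78 ± 0.09 (edgeR adjusted p = 1.8e-10) on the log2 scale. Over the whole process this was a 14.8-fold rise (log2 3.89 ± 0.11, edgeR adjusted p = 3.1e-14). Abcd3 (19299), also called PMP70 and much used as a marker of the membrane, differed by little, with means of 19.8 ± 0.490, 22.8 ± 1.16 and 22.7 ± 0.665 FPKM. The early log2 fold change was 0.27 ± 0.05 (edgeR adjusted p = 0.00011) and the late one 0.04 ± 0.05 (edgeR adjusted p = 0.57).

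The first steps of the oxidation spiral are taken by acyl-CoA oxidases and then by bifunctional proteins that hydrate and dehydrogenate the product. Acox3 (80911), the oxidase that handles branched chains, rose from 8.84, 8.0 and 8.35 FPKM to 12.54, 13.06 and 12.56 FPKM at day 4 and stayed between 11.97 and 13.01 FPKM at day 8, an early log2 fold change of 0.66 ± 0.06 (edgeR adjusted p = 6.1e-08). Hsd17b4 (15488), the D-bifunctional protein, was at 22.74, 22.09 and 23.6 FPKM at day 0, at 38.23, 38.98 and 39.25 FPKM at day 4 and at 35.17, 36.74 and 36.77 FPKM at day 8. Its day 8 samples lay below those of day 4 in FPKM, while the late log2 fold change of -0.05 ± 0.05 did not pass (edgeR adjusted p = 0.36). The other bifunctional protein, Ehhadh (74147), was almost absent, with 0, 1 and 0 expected counts at day 0, 6, 9 and 7 at day 4 and 8, 10 and 22 at day 8. Summed over samples, the counts were 1, 22 and 40 at the successive days. The ratio of day 8 to day 0, scaled by depth, was 42.5 with a 95% counting interval of 7.19 to 1718. It rested on 1 count at day 0 and was 27.8 without day 0 replicate 1 or 3 and 28.4 without day 8 replicate 3, which held 22 of the 40 counts of that day. The days 4 and 8 overlapped, and their ratio of 1.88 fell to 1.25, with an interval of 0.634 to 2.45, without day 8 replicate 3. Leaving out single samples was added after these values were seen. Intervals of this kind (exact, on the summed counts) cover counting error only.

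Thiolases close each round by cutting off the shortened acyl-CoA, and all 3 of their genes rose in both phases. Scp2 (20280), which encodes a thiolase for branched chains and, from a second start, a lipid carrier, was at 30.93, 30.2 and 29.54 FPKM at day 0, at 87.77, 96.37 and 113.58 FPKM at day 4 and at 121.23, 130.22 and 124.42 FPKM at day 8. No days overlapped, and at day 8 it had the highest level of the 27 genes. Scp2 rose by 1.78 ± 0.07 on the log2 scale early (edgeR adjusted p = 3.4e-12) and by 0.38 ± 0.07 late (edgeR adjusted p = 0.00032). Acaa1a (113868), a straight-chain thiolase, was at 33.54, 31.39 and 35.49 FPKM at day 0, at 49.34, 54.67 and 51.4 FPKM at day 4 and at 67.66, 65.64 and 69.22 FPKM at day 8. It rose by 0.70 ± 0.06 (edgeR adjusted p = 2e-08) and then by 0.43 ± 0.06 (edgeR adjusted p = 1.2e-05) on the log2 scale, again without overlap. Acaa1b (235674), its close paralog, was rare, with 3, 2 and 3 expected counts at day 0, 14, 19 and 14 at day 4 and 48, 65 and 58 at day 8. Its day 8 to day 0 ratio on summed counts was 22.7 with a 95% counting interval of 11.3 to 53.4, and its late log2 fold change was 1.90 ± 0.23 (edgeR adjusted p = 6.1e-06).

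Reads of the thiolase genes may be shared. Of the 50-base stretches of the Acaa1b transcript, 46.2% also occur in Acaa1a or, on the opposite strand, in Dlec1, and 35.1% of those of Acaa1a occur in Acaa1b or, on the opposite strand, in Myd88. For Scp2 41.4% also occur in the pseudogene Scp2-ps2 or in Gm47162 on the opposite strand. Pex14 followed with 25.1%, shared with Gm17029 on the opposite strand, and Eci2 with 10.7%, shared with Eci3 or, on the opposite strand, with Gm16984. The division of reads between Acaa1a and Acaa1b is therefore uncertain in size, and whether it bears on the rise of Acaa1b was not tested.

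The start regions of these genes can be shown beside their values, since members that rose together in the early phase include some with and some without the motifs searched. RefSeq windows on GRCm38.p6 were at hand for 21 of the 27 genes, as 25 windows, and the 250 bases before each start were searched on both strands. The motif AGGTCA, a hexamer bound by many nuclear receptors, occurred in 2 member windows, those of Pex11g and Scp2, and in 14% of all 32851 windows. The direct repeat AGGTCANAGGTCA, which holds that hexamer at each end, occurred in 0 of the 25 member windows and 0.0335% of all, and the looser AGGNCANAGGNCA, which includes it, in 0 and 0.338%. CCAAT, the box bound by NF-Y, occurred in 9 member windows of 8 genes (Acaa1a, Acaa1b, Eci2, Ehhadh, Pecr, Pex16, Pex5 and Pex7) and in 33.8% of all windows. A match is a description of the letters and not a binding site. The 2 windows with the hexamer are shown first, at chr4:108118548-108118797 on the minus strand for Scp2 and chr8:3467649-3467898 on the minus strand for Pex11g, 5′ to 3′ with AGGTCA in capitals, which begins 109 and 173 bases before the start.
Scp2: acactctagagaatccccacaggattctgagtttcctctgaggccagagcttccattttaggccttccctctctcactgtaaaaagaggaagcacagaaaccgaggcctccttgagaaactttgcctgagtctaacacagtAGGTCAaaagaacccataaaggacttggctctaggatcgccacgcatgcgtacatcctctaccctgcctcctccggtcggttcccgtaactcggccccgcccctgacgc
Pex11g: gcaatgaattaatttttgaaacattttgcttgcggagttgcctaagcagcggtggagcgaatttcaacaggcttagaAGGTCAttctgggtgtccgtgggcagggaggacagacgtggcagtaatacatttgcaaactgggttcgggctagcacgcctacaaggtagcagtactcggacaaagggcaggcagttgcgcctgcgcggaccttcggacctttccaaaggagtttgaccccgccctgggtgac

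The thiolase paralogs Acaa1a and Acaa1b are shown because their levels lay far apart although their transcripts share long stretches. The windows are at chr9:119341044-119341293 on the plus strand for Acaa1a and chr9:119157094-119157343 on the minus strand for Acaa1b, with CCAAT or its reverse complement in capitals. Acaa1a holds 3 matches, beginning 199, 122 and 107 bases before the start, and Acaa1b holds 2, at 185 and 38 bases.
Acaa1a: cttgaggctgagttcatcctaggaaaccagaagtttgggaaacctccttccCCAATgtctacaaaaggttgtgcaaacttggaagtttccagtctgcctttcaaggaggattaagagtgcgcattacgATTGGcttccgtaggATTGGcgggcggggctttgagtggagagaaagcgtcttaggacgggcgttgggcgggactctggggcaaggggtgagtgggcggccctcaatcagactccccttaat
Acaa1b: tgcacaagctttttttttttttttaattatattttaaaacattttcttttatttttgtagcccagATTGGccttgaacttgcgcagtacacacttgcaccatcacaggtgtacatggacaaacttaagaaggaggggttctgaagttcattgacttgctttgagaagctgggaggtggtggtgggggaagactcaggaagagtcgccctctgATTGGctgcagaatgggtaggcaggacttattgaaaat

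Auxiliary enzymes, which prepare unsaturated or branched chains for the spiral, changed by less than 2-fold in every comparison. Eci2 (23986), an enoyl-CoA isomerase, was the most abundant of the 27 genes at day 0, at 42.33, 45.14 and 42.26 FPKM. It rose to 57.53, 58.21 and 62.7 FPKM at day 4, a log2 fold change of 0.52 ± 0.05 (edgeR adjusted p = 6.4e-08), and was at 59.92, 56.9 and 58.89 FPKM at day 8. Decr2 (26378), the peroxisomal dienoyl-CoA reductase, had means of 24.6 ± 0.474, 26.9 ± 2.10 and 26.7 ± 0.302 FPKM and an early log2 fold change of 0.19 ± 0.06 (edgeR adjusted p = 0.0072), which did not pass under library size alone (0.064). Pecr (111175), which encodes the trans-2-enoyl-CoA reductase, passed no test, with 6.43, 6.84 and 6.55 FPKM at day 0, 6.22, 5.69 and 6.88 FPKM at day 4 and 6.43, 6.79 and 6.64 FPKM at day 8. Its log2 fold change over the whole process was 0.12 ± 0.10 (edgeR adjusted p = 0.33).

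Amacr and Phyh, both needed for branched chains, moved in opposite directions in each phase. Amacr (17117), the racemase of 2-methylacyl-CoAs, was at 10.85, 10.68 and 10.8 FPKM at day 0, at 17.95, 18.63 and 17.14 FPKM at day 4 and at 15.9, 14.98 and 13.57 FPKM at day 8. The days did not overlap. It rose by 0.80 ± 0.06 on the log2 scale in the early phase (edgeR adjusted p = 1.1e-08), then fell by 0.23 (SE 0.06, edgeR adjusted p = 0.0066), the latter not passing without day 4 replicate 2 (0.067) or without day 8 replicate 3 (0.087). Phyh (16922), the phytanoyl-CoA hydroxylase of alpha-oxidation and a cargo of PEX7, was at 10.75, 12.48 and 10.91 FPKM at day 0, at 9.39, 8.62 and 9.49 FPKM at day 4 and at 12.53, 13.34 and 12.48 FPKM at day 8. Day 4 was the lowest, and day 0 and day 8 touched in FPKM. Its early log2 fold change of -0.24 ± 0.08 (edgeR adjusted p = 0.015) did not pass without day 0 replicate 2 (0.072) or day 4 replicate 2 (0.052), and its late rise was 0.53 ± 0.08 (edgeR adjusted p = 6.4e-05).

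Crat (12908), the carnitine acetyltransferase that exports acetyl groups and also works in mitochondria, was at 23.35, 22.37 and 23.72 FPKM at day 0, at 64.18, 75 and 77.15 FPKM at day 4 and at 61.91, 65.09 and 65.95 FPKM at day 8. Day 0 lay apart and the later days overlapped. The early log2 fold change was 1.71 ± 0.07 (edgeR adjusted p = 1.2e-12). The late value of -0.12 ± 0.06 did not pass (edgeR adjusted p = 0.13), but without day 4 replicate 1 it was -0.20 (edgeR adjusted p = 0.005), and under library size alone it was -0.17 (0.034).

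**Figure D2:**
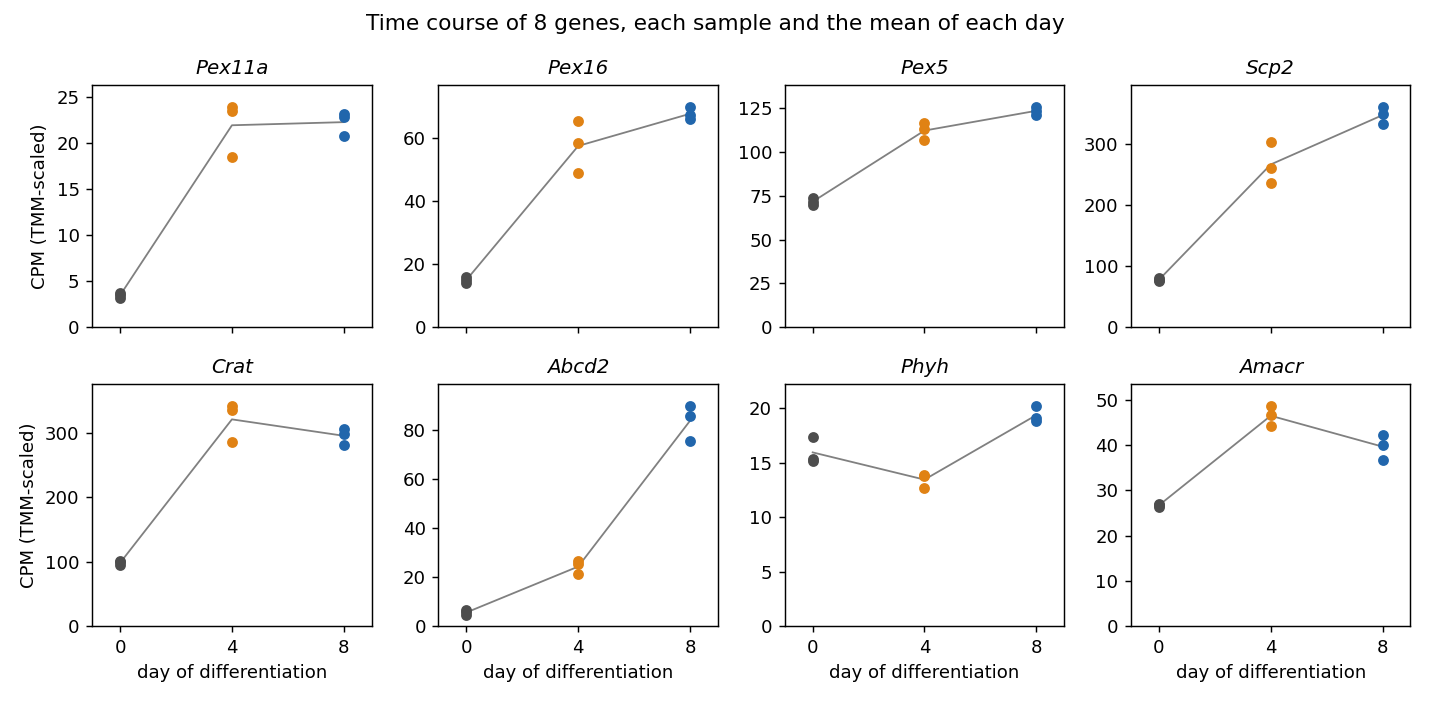
TMM-scaled CPM (vertical axes, each from 0 with its own range) of 8 genes against the day of differentiation. Points are the 3 samples of each day and lines join the means of the days. Pex11a and Pex16 reach most of their day 8 level by day 4. Crat has a mean of 321 CPM at day 4 and 296 at day 8, with overlapping samples. Abcd2 rises in both steps, Phyh is lowest at day 4 and Amacr highest there.

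The order of levels also shifted between days, on the FPKM scale, which accounts for transcript length. At day 0 the highest were Eci2 (43.2 ± 1.64 FPKM), Acaa1a (33.5 ± 2.05) and Scp2 (30.2 ± 0.695), each apart from the next, while Decr2, Pex5, Pex14, Crat and Hsd17b4 between 24.6 and 22.8 FPKM each overlapped with the neighbour. At day 8 Scp2 (125.3 ± 4.56) led, followed by Acaa1a (67.5 ± 1.80) and Crat (64.3 ± 2.13), which overlapped with each other, and then by Eci2 (58.6 ± 1.54). Pex16, Pex19 and Pex14 came next at 51.0, 48.6 and 47.1 FPKM, and each overlapped with its neighbour. Pex11a moved from 4.21 ± 0.311 FPKM, below Pex7, to 25.1 ± 1.32 FPKM, overlapping with Pex6. Ehhadh, Acaa1b and Abcd2 were the lowest at day 0, and at day 8 Abcd2 (14.5 ± 1.17 FPKM) overlapped with Amacr and Pex3.

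**Figure D3:**
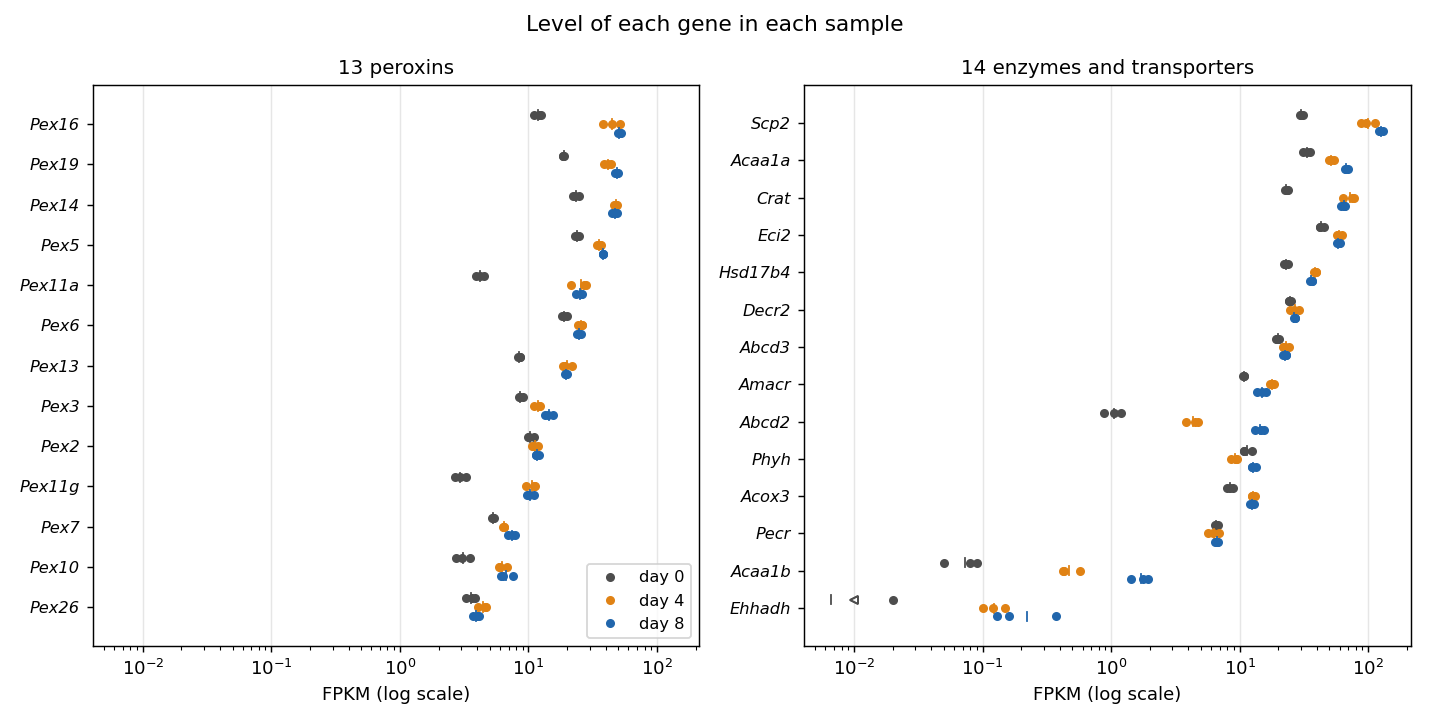
Level of each of the 27 genes in each sample, in FPKM on a log axis, sorted by the day 8 mean. Points are single samples at day 0 (grey), day 4 (orange) and day 8 (blue), short vertical lines are the means, and an open triangle stands for the samples of Ehhadh listed at 0. Day 0 stands apart to the left for Pex11a, Pex11g, Pex16 and Abcd2, while Pecr and Decr2 barely shift.

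Set beside each other, the peroxins had the higher median log2 fold change in the early phase, 1.08 against 0.70, and over the whole process, 1.12 against 0.68. The late medians, 0.11 and 0.04, moved with single samples. That of the enzymes and transporters was 0.0662 without day 4 replicate 2, 0.0914 without day 4 replicate 3 and 0.0780 without day 8 replicate 3, and that of the peroxins was 0.0728 without day 8 replicate 1. The late median of the enzymes and transporters changed sign, to -0.01, under library size alone. More than 2-fold early calls were 7 of 13 against 4 of 13, and over the whole process 7 of 13 against 5 of 13, Acaa1a being added and Acaa1b, with its few counts at day 0, included in both. Of all genes tested, 9.77% were called higher early and 10.3% over the whole process. The genes within a group are not replicates, so no test was run on the difference between the groups.

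Other peroxisomal genes give the setting. On lists of 50 further genes, 47 had a row and 40 were tested. In the early phase 12 of 40 were higher and 0 lower by more than 2-fold, beside 9.77% and 7.98% of all genes tested. In the late phase 1 was higher, Ddo, and 1 lower, Acot6, beside 4.24% and 2.81%, shares that do not set these genes apart. Acot6 passed the filter on low counts through its counts at days 0 and 4. Over the whole process 17 were higher and 1 lower, beside 10.3% and 7.70%. The medians were 0.62, 0.06 and 0.84 on the log2 scale.

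Further oxidation genes included the largest change on the peroxisomal lists, in Acsl1. Of 11 tested, 6 were higher by more than 2-fold over the whole process, beside 10.3% of all genes, and the median was 1.26. By the adjusted p alone 10 were higher and 1 lower, beside 34.8% and 36.2% of all genes. Acsl1, which activates long-chain fatty acids for several organelles, went from 9.6, 9.06 and 9.11 FPKM at day 0 to 468.85, 546.18 and 570.43 FPKM at day 4 and 498.78, 562.25 and 543.78 FPKM at day 8. Its log2 fold change over the whole process was 5.97 ± 0.09 (edgeR adjusted p = 3.3e-17), nearly all of it present at day 4. Acox2, the oxidase of branched chains and bile acid intermediates, had 3.77 ± 0.28 (edgeR adjusted p = 5.1e-09), Acad11 1.57 ± 0.07 (edgeR adjusted p = 5.4e-12) and Mlycd, the malonyl-CoA decarboxylase, 1.42 ± 0.10 (edgeR adjusted p = 2e-09).

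Among the genes that handle hydrogen peroxide and other redox or membrane steps, most rose. Of 9 tested, 7 were higher by more than 2-fold over the whole process, with a median of 1.13, and 5 of them in the early phase. Of all genes tested, 10.3% and 9.77% were called higher in these comparisons. Cat, the catalase that removes hydrogen peroxide, was at 38.16, 42.69 and 41.81 FPKM at day 0, at 158.09, 170.38 and 173.46 at day 4 and at 129.86, 132.1 and 125.59 at day 8. It peaked at day 4 without overlap, rising by 2.10 ± 0.05 (edgeR adjusted p = 1.2e-14) and then changing by -0.33 ± 0.05 (edgeR adjusted p = 6.6e-05). Pxmp2, a channel of the membrane, had a log2 fold change of 3.35 ± 0.19 over the whole process (edgeR adjusted p = 1.2e-10), Ephx2, the soluble epoxide hydrolase, 3.19 ± 0.09 (edgeR adjusted p = 5.8e-14) and Pxmp4 2.15 ± 0.05 (edgeR adjusted p = 7.5e-15).

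The plasmalogen genes split. Gnpat, which makes the first acyl-dihydroxyacetone phosphate, rose from 20.58, 20.78 and 19.7 FPKM at day 0 to 61.49, 73.79 and 76.4 FPKM at day 4 and 89.8, 91.97 and 93.24 FPKM at day 8, a log2 fold change of 2.28 ± 0.07 over the whole process (edgeR adjusted p = 8.2e-14). The other 3, Agps, which acts directly after Gnpat, and the fatty alcohol producers Far1 and Far2, were lower over the whole process. They passed by the adjusted p alone, by which 36.2% of all genes tested were lower. The values were -0.31 ± 0.06 (edgeR adjusted p = 0.00015), -0.44 ± 0.07 (edgeR adjusted p = 1.8e-05) and -0.80 ± 0.33 (edgeR adjusted p = 0.038). Far2 was at most at 1.09 FPKM in any sample, and its day 4 samples overlapped with both other days. Agps, Far1 and Far2 were named after their values were seen.

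Of 6 export and thioesterase genes tested, 2 were higher and 1 lower by more than 2-fold over the whole process, with a median of 0.68. Of all genes tested, 10.3% and 7.70% were called higher and lower. Nudt7 and Nudt12, which cut coenzyme A and nicotinamide nucleotides, had log2 fold changes of 1.35 ± 0.10 (edgeR adjusted p = 6.2e-09) and 1.21 ± 0.11 (edgeR adjusted p = 4.4e-08). Acot6, an acyl-CoA thioesterase with at most 18 counts in any sample, had -1.43 ± 0.54 (edgeR adjusted p = 0.026). It had 11, 6 and 18 counts at day 0, 11, 7 and 16 at day 4 and 6, 2 and 4 at day 8. Acot6 thus passed the filter through the earlier days, where it was higher. Its day 8 to day 0 ratio on summed counts was 0.364 with a 95% counting interval of 0.172 to 0.718. Of 7 protease and fission genes tested, 0 passed 2-fold over the whole process, and the median was 0.17. By the adjusted p alone 5 were higher and 1 lower, beside 34.8% and 36.2% of all genes. Of 3 other oxidases tested, 1 was higher by more than 2-fold, beside 10.3% of all genes, and the median was 0.97. The 1 called was the D-aspartate oxidase gene Ddo. Ddo had 5, 5 and 7 counts at day 0 and 51, 59 and 79 at day 8, so it passed the filter through the later days. Its day 8 to day 0 ratio on summed counts was 11.8 with a 95% counting interval of 7.18 to 20.7.

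**Figure D4:**
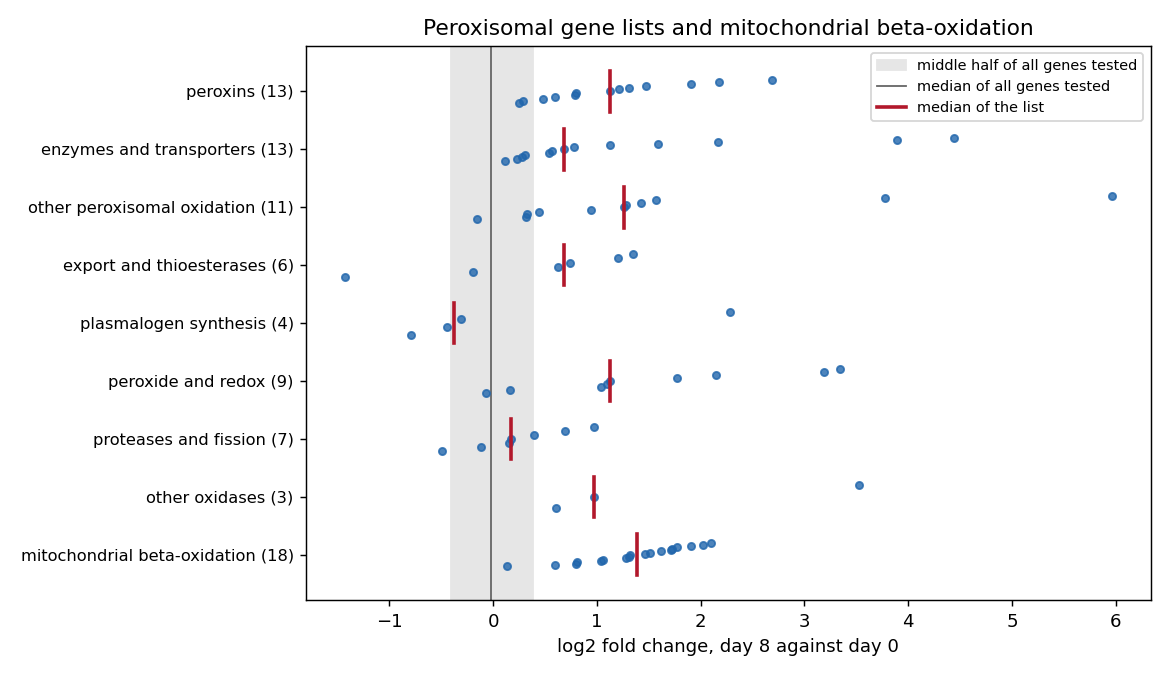
Log2 fold change of day 8 against day 0 (horizontal axis) for each tested gene (blue points) of the peroxins, the enzymes and transporters, the other peroxisomal lists and mitochondrial beta-oxidation, with the number tested in parentheses. Red lines are list medians, the thin line is the median of all genes tested (-0.02) and the grey band their interquartile range, from -0.40 to 0.39. The medians of 1.12 for peroxins and 0.68 for enzymes and transporters lie right of the band, as does 1.39 for mitochondrial beta-oxidation, while plasmalogen synthesis lies at -0.37.

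Mitochondrial beta-oxidation, which completes the chains that peroxisomes shorten, had most of its calls in the early phase. Of its 18 genes, 11 were higher by more than 2-fold in the early phase, 0 in the late phase and 13 over the whole process, beside 9.77%, 4.24% and 10.3% of all genes, and none was lower by that rule. By the adjusted p alone 16 were higher at day 4 than at day 0 and 16 at day 8 than at day 0, beside 35.5% and 34.8%. By the same rule 7 were higher and 3 lower in the late phase, beside 22.5% and 22.7% of all genes. Cpt1a and Cpt1b, the carnitine palmitoyltransferases of the entry step, were the exceptions in the early phase. Cpt1a had an early log2 fold change of -0.12 ± 0.08 (edgeR adjusted p = 0.18). That of Cpt1b, 1.73 ± 0.86 (edgeR adjusted p = 0.087), rested on uneven counts, 0, 14 and 14 at day 0 and 26, 0 and 65 at day 4. The medians of the 18 genes were 1.42, 0.07 and 1.39 on the log2 scale. The early and whole-process medians were above those of both peroxisomal groups, a difference that was not tested. Of the PPAR and RXR nuclear receptors and their coactivators, 7 of 8 were tested, and 4 were higher by more than 2-fold over the whole process, beside 10.3% of all genes, with a median of 1.03. Pparg, the receptor of adipocyte differentiation, was at 11.45, 11.4 and 11.7 FPKM at day 0, at 87.63, 91.86 and 100.22 at day 4 and at 119.31, 136.43 and 133.39 at day 8, a log2 fold change of 3.51 ± 0.07 (edgeR adjusted p = 7.6e-16). Ppard, its widely expressed relative, had 1.03 ± 0.05 (edgeR adjusted p = 1.4e-11). Ppara, the receptor that drives peroxisomal genes in liver, did not pass the filter and had at most 16 counts in any sample. The coactivator gene Ppargc1b had 2.08 ± 0.15 (edgeR adjusted p = 3.1e-09). Rxrg, one of the partner receptors and of the 4 calls, had 5, 0 and 2 counts at day 0 and 33, 39 and 31 at day 8, and it too passed the filter through the later days. Its ratio on summed counts was 15.6 with a 95% counting interval of 7.31 to 39.8.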

How the data were processed

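RNA-seq was analysed in 9 samples of 3T3-L1 cells, grouped by the day in the sample titles. Low-quality reads were dropped by the authors before mapping and RSEM, and the processing notes name CASAVA 1.4 and Bowtie2. The genome build and strand setting are not given in the sources used here. The authors deposited expected counts (29.8% not whole, not normalized) and FPKM, which the authors scaled to gene length and depth. Expected counts were rounded, filtered (filterByExpr), scaled by TMM and tested in edgeR 4.0.16 (R 4.3.3) by the quasi-likelihood F-test and adjusted by Benjamini-Hochberg. One model held all 9 samples, with 1 coefficient per day. The SE is the log2 fold change divided by the square root of F. A call needed an adjusted p under 0.05 and, unless stated, a fold change above 2. Overlap counts used TMM-scaled CPM, and overlaps of printed levels used FPKM. Ratios of rare genes have exact 95% intervals.

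The members and all lists were chosen with earlier results of these data known. All 27 members were named, and of other lists at most 4 called genes with the largest change over the whole process. Beyond that rule, Agps, Far1, Far2, Ppara, Cpt1a, Cpt1b and genes used to check labels were named. Some listed genes are not reported here. Shared stretches of 50 bases came from GENCODE vM21 transcripts, and promoter windows from RefSeq. Steps were tested on simulated data. Alternatives were other scaling factors, tests (DESeq2 1.42.0, limma 3.58.1 on log2 FPKM with a pseudocount of 1 or 0.1, edgeR's exact test), filters, thresholds, a replicate block and leaving out each sample.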

Additional observations from a re-analysis of the deposited data

How the results depend on the processing

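Of 1557 values of single members under 20 alternatives, 1506 kept their direction and their side of the 2-fold call, 43 changed sign and 8 lost the call: Pex14, Pex10 and Acaa1a fell to 0.83 to 1.00 on the log2 scale and Acaa1b to 0.46 early and 0.88 late with limma on log2(FPKM + 1), and Pex10 to 0.99 early with a pseudocount of 0.1. Without the fold threshold, 13 peroxins and 11 enzymes or transporters were higher and 1 lower in the early phase, 5 and 5 higher and 1 lower in the late phase, and 13 and 12 higher over the whole process. The late count of enzymes and transporters was 1 instead of 2 with limma on log2(FPKM + 1) and with at least 10 counts in every sample, since Acaa1b is then not called or not tested. The early median of the peroxins, 1.08, was 1.02 under library size alone and 0.83 and 0.99 with limma (pseudocounts 1 and 0.1), and that of the enzymes and transporters, 0.70, was 0.55 with limma and a pseudocount of 1. The late peroxin median, 0.11, was 0.13 with RLE factors and DESeq2, 0.0675 under library size alone and 0.0611 and 0.0660 with limma. The late median of the enzymes and transporters, 0.04, reversed to -0.0092 under library size alone and to -0.0069 and -0.0070 with limma, and was 0.0845 without a filter. Over the whole process the peroxin median, 1.12, was 1.07 with upper-quartile factors, 1.01 under library size alone and 0.90 and 1.01 with limma, and that of the enzymes and transporters, 0.68, was 0.62, 0.57, 0.52 and 0.56. Library size alone moved the median of all genes over the whole process to -0.13, and in each case the cause was not tested further. It also moved the split of all genes called over the whole process from 1356 higher and 1013 lower to 1190 and 1214.

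The 43 sign changes fell on 10 members with small values, and 0 of them had an adjusted p under 0.05 in either fit. In the late phase the log2 fold changes turned negative under library size alone (-0.0092 for Abcd3, -0.01 for Decr2, -0.0145 for Pex14, -0.0235 for Pex11a, -0.0276 for Eci2, -0.0279 for Pex13, -0.0311 for Acox3), with limma and a pseudocount of 1 (-0.0084 for Abcd3, -0.0069 for Decr2, -0.0147 for Pex14, -0.0149 for Pex11a, -0.0212 for Eci2, -0.0237 for Pex13, -0.0288 for Acox3) and with limma and a pseudocount of 0.1 (-0.0087 for Abcd3, -0.007 for Decr2, -0.015 for Pex14, -0.0151 for Pex11a, -0.0215 for Eci2, -0.0246 for Pex13, -0.0309 for Acox3). They turned positive for Pex6 and Pex11g with RLE factors and with DESeq2 (0.0153 and 0.0170 in each), and for Pex11g with at least 10 counts in every sample (0.0007) and without a filter (0.0011). Leaving out single samples gave late values from -0.0398 to 0.0429 for Pex6, from -0.0884 to 0.1015 for Pex11a, from -0.0735 to 0.0777 for Pex11g, from -0.0285 to 0.0856 for Pex13, from -0.0169 to 0.0914 for Decr2, from -0.0035 to 0.0476 for Eci2, from -0.0012 to 0.0662 for Acox3, and early values from -0.0771 to 0.0395 for Pecr.

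Leaving out each sample in turn left the counts above 2-fold at 7 peroxins and 4 enzymes or transporters early, and at 0 and 2 late. Over the whole process they were 7 and 5, and 0 were lower in each comparison. The medians ranged from 1.01 to 1.11 and 0.64 to 0.74 early, from 0.0728 to 0.123 and 0.0250 to 0.0914 late, and from 1.09 to 1.14 and 0.64 to 0.72 over the whole process, for peroxins and for enzymes and transporters. The late median of the enzymes and transporters was 0.0662 without day 4 replicate 2, 0.0914 without day 4 replicate 3 and 0.0780 without day 8 replicate 3, and that of the peroxins 0.0728 without day 8 replicate 1. Whether the replicate numbers pair the samples could not be settled from the correlations of their deviations. The mean correlation was 0.0308 for same-number pairs and -0.0154 for different-number pairs. Of 9 same-number pairs 0 had a correlation over 0.1, while 6 of 9 samples correlated best with their own number. With the replicate block the counts were 7 and 4 early, 0 and 2 late, and 7 and 5 over the whole process. Depth limits Ehhadh and Acaa1b, whose ratios rest on 1 and 8 counts at day 0.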
